A study of Mus musculus with 2 samples.

Results

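The heat shock chaperones described here were 9 of the 32285 genes counted in mononuclear cells of acutely injured mouse quadriceps: the inducible HSP70 genes *Hspa1a* and *Hspa1b*, the constitutive HSP70 *Hspa8*, the cytosolic HSP90 *Hsp90aa1*, the co-chaperones *Dnajb1* and *Hsph1*, the small heat shock protein *Hspb1*, and the mitochondrial chaperonin genes *Hspd1* and *Hspe1*. The list was chosen by measured values: an earlier analysis of these data listed the inducible HSP70 pair among the top genes of a macrophage cluster led by *Cd163*, and the list of 9 was drawn up with that result known. Values of the *Cd163* comparison are therefore a description and no test, and the same holds for the differences between days, because each day was a single library.

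The samples came from WT male C57BL/6J mice aged 14 weeks whose quadriceps were injured by injection of BaCl2, a salt that kills muscle fibers and spares the resident stem cells. Muscles were collected 1 and 3 days later, those of several mice were pooled per day, and cells were released by collagenase and dispase, frozen, thawed and loaded for droplet-based single cell RNA sequencing. Both groups share the genotype, the injury and the described steps of cell preparation, and no uninjured sample was analysed here. A unique molecular identifier (UMI) counts 1 captured RNA molecule, and a level is given as CPM, the UMIs of a gene per 1000000 UMIs of the cells in a group.

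Chaperones hold unfolded proteins in a state from which they can fold. HSP70 proteins bind exposed hydrophobic stretches in a cycle driven by ATP, J-domain proteins such as DNAJB1 deliver clients and start hydrolysis, and HSP110 proteins such as HSPH1 exchange the nucleotide and reset the cycle. HSP90 takes over clients that are nearly folded, HSPB1 holds aggregating proteins without ATP, and the HSP60 ring with its HSP10 lid folds proteins inside mitochondria. Most of these genes have heat shock elements, inverted repeats of the letters GAA, to which the transcription factor HSF1 binds after heat, protein damage or oxidative stress. Inducible HSP70 genes also respond to the handling of cells, and macrophages, fibroblasts and myoblasts all carry the response.

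The sequences around the starts of the members are shown because several members hold this element and because the inducible HSP70 pair is nearly identical there. They are taken from RefSeq promoter windows on GRCm38.p6, which end 50 bases after the start of a gene and hold 300 bases, and capitals mark the GAA and TTC units of each match. Windows were searched for the pairs GAANNTTC and TTCNNGAA, which read the same on both strands. The bases from position -150 to -1 of *Hspa1a* (chr17:34972157-34972306, minus strand) and *Hspa1b* (chr17:34959239-34959388, minus strand) differed at 1 of 150 positions, with a pair at -104 in each:
Hspa1a: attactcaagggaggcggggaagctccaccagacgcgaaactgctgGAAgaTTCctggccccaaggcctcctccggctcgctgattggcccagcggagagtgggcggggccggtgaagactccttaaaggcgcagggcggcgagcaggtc
Hspa1b: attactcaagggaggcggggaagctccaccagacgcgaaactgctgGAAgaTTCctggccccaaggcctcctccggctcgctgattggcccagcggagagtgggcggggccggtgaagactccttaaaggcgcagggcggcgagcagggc
The mitochondrial genes *Hspe1* and *Hspd1* lie head to head, and the same 30 bases at chr1:55088053-55088082 fall in a window of each, read on opposite strands. This stretch held 3 overlapping pairs:
Hspe1: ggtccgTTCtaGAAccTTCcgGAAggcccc
Hspd1: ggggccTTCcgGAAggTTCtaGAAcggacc
*Hspb1* had 2 pairs of the form GAANNTTC within chr5:135887797-135887836 (plus strand), and *Hsph1* had overlapping pairs just after its start, at chr5:149636282-149636306 (minus strand):
Hspb1: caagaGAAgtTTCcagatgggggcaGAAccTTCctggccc
Hsph1: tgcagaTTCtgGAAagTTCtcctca
Neither window of *Dnajb1* held a match, and *Hsp90aa1* and *Hspa8* had no entry. Of 32851 promoter windows of this length, 15.1% held at least 1 such pair and 0.603% held 3 alternating units in a row, as the windows of *Hsph1* and *Hspe1* and 1 of the 2 windows of *Hspd1* do. A match describes letters and is not evidence of binding.

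*Hspa1a* (chromosome 17, 34969190 to 34972156) and *Hspa1b* (chromosome 17, 34956436 to 34959238) lie on the minus strand of GRCm38 with 9951 bases between them, and each has a single exon. Their coding parts were identical at 99.6% of aligned positions, with 8 differences in 1926, while the parts after the coding sequence, where 3′ libraries are read, matched at 71.6% of aligned positions. How the authors' counting divided reads that fit both copies is not given in the sources used here, so each copy's value is uncertain and their sum is given as well. *Hspe1* (chromosome 1, 55088132 to 55091307, plus strand) and *Hspd1* (chromosome 1, 55077835 to 55088243, minus strand) overlap by 112 bases at their starts. The remaining members are on chromosomes 5 (*Hsph1*, 149614287 to 149636376, and *Hspb1*, 135887919 to 135889563), 8 (*Dnajb1*, 83608193 to 83612653), 9 (*Hspa8*, 40800984 to 40810087) and 12 (*Hsp90aa1*, 110690605 to 110702728).

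The day 1 library held 74852240 UMIs and the day 3 library 102565783. Of the 7367 and 6640 barcodes with most UMIs, 6735 and 4627 cells passed the limits of at least 1000 UMIs, at least 200 genes and at most 7.5% mitochondrial UMIs, with medians of 9389 and 14548 UMIs. The libraries differed in ways other than the day: 7.02% of the day 1 barcodes and 30.3% of the day 3 barcodes were over the mitochondrial limit, and the lists of possible barcodes held 737280 and 6794880 entries, so a difference between days and one between libraries cannot be told apart. No barcode sequence of a cell was shared between the libraries. The libraries were thus counted with different barcode lists, a difference that runs fully with the day, so the same capture chemistry cannot be assumed for both. The authors' methods name chip kits of more than 1 version and do not say which library used which. The part of this difference in the ratios between days was not tested. Clusters were named only from marker genes, and gave 3454 monocyte/macrophage-like cells on day 1 and 2839 on day 3, 2041 and 239 neutrophil-like cells, 482 and 441 dendritic cell-like cells, 658 and 846 fibroblast/FAP-like cells (FAPs are the fibro-adipogenic progenitors of muscle), 94 and 63 endothelial-like cells, and 6 and 199 satellite cell/myoblast-like cells. Every marker of a type's own list was detected in the cells of that type on both days (the 6 day 1 myoblast-like cells are not described), although in the dendritic cell-like cells the summed macrophage markers (3970 and 4831 CPM) stood above their own markers (533 and 537 CPM). All intervals below are exact 95% intervals that cover counting error only.

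The 9 chaperones together took 0.485% of all UMIs on day 1 and 0.735% on day 3, and each of them had a higher level on day 3. With 1 library per day there is no replicate check, and a gene is called here when its CPM differed at least 2-fold and the groups held at least 500 UMIs of it. Over all cells, 4 of the 9 members were called higher on day 3 (*Hspb1*, *Dnajb1*, *Hspa1b* and *Hsph1*), where 20.9% of the 10388 genes tested were, so the share of members stood above the background, in a list that was not chosen at random. The median log2 ratio was 0.82 over the members and 0.36 over all genes tested. *Hspa8* (0.27) and *Hspe1* (0.32) lay below the latter. The cell types were present in very different shares on the 2 days, so the levels are given by type below.

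**Figure D1:**
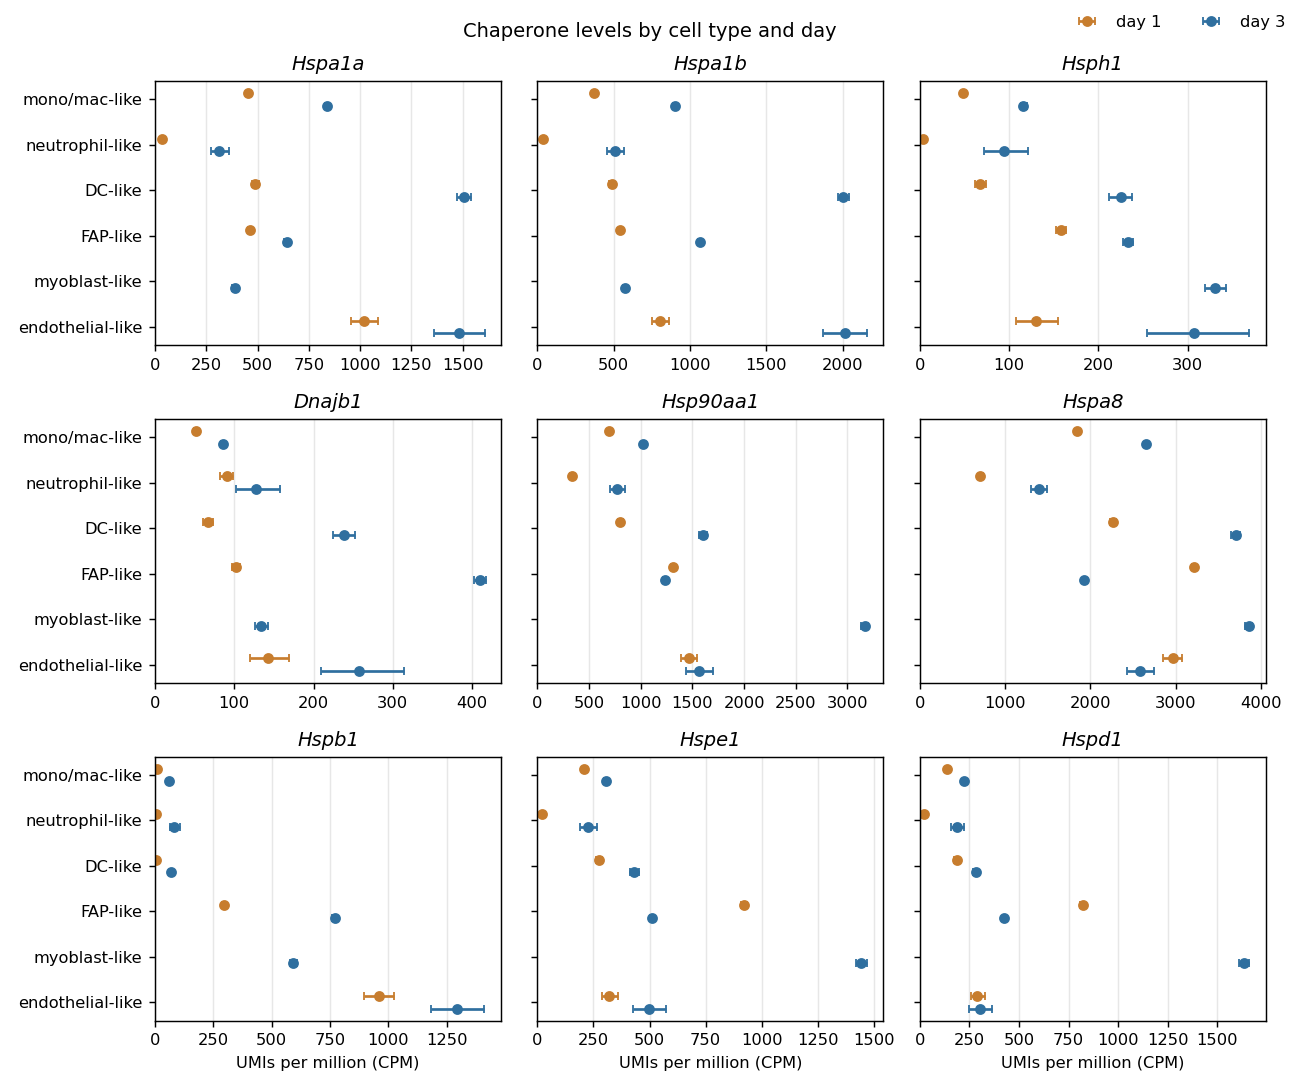
Level of each chaperone (CPM, linear axes that start at 0 and differ between panels) in each marker-defined cell type on day 1 and day 3, with 1 panel per gene and bars for the exact 95% counting interval. *Hspa1b* is higher on day 3 in each of the 5 types measured on both days, while *Hspe1* and *Hspd1* are lower on day 3 in the FAP-like cells and highest in the myoblast-like cells of day 3.

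The inducible HSP70 genes are kept low in unstressed cells and are the classical readout of HSF1. *Hspa1a* in the monocyte/macrophage-like cells was 453 CPM (446 to 460) on day 1 and 838 CPM on day 3, a log2 ratio of 0.89 (0.86 to 0.91). *Hspa1b* was 371 CPM (365 to 377) and 900 CPM, a log2 ratio of 1.28 (1.25 to 1.31). Both copies were thus higher on day 3, and *Hspa1b* passed 2-fold. In dendritic cell-like cells the difference between days was larger: *Hspa1a* was 489 CPM on day 1 and 1505 CPM on day 3 (log2 ratio 1.62), and *Hspa1b* 488 and 2005 CPM (2.04). The dendritic cell-like group held 117 and 229 cells in an alternative clustering after log normalization, and 361 and 439 at a resolution of 0.4. FAP-like cells had 464 and 641 CPM of *Hspa1a* and 544 and 1067 CPM of *Hspa1b*, log2 ratios of 0.47 and 0.97, both under 2-fold. Endothelial-like cells, the lining cells of vessels, were few but had high levels on both days: *Hspa1a* was 1021 CPM (957 to 1088) and 1480 CPM (1360 to 1607), and *Hspa1b* 805 CPM (749 to 865) and 2013 CPM (1873 to 2161). Their endothelial markers summed to 2535 and 2347 CPM and erythroid markers to 1777 and 7.88 CPM. T/NK cell markers summed to 103 and 1798 CPM there, and pericyte/smooth muscle markers to 355 and 1122 CPM. The group was thus mixed, and the part of other cells in its levels was not tested. In an alternative clustering on 20 PCs it held 82 and 22 cells.

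On day 1 the endothelial-like cells had the highest level of both genes among the types. On day 3 the dendritic cell-like cells and the endothelial-like cells led, with *Hspa1a* at 1505 CPM (1472 to 1539) and 1480 CPM (1360 to 1607) and *Hspa1b* at 2005 CPM (1967 to 2044) and 2013 CPM (1873 to 2161), pairs of intervals that overlap. The myoblast-like cells of day 3 were at the low end of the types with 389 CPM of *Hspa1a* and 574 CPM of *Hspa1b*. RNA free in the droplets, read from barcodes with at most 100 UMIs, held 857 CPM of the pair on day 1 and 1719 CPM on day 3, close to the 846 and 1756 CPM over all cells. Its estimated share was 33.9% in the day 1 endothelial-like cells, whose summed neutrophil markers were 3445 CPM, and 2.18% in those of day 3, where they were 84.1 CPM. Subtracting it gave 1290 CPM of *Hspa1a* in the former, higher than without subtraction.

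Neutrophil-like cells stood apart on day 1, with 33.8 CPM (28.9 to 39.3) of *Hspa1a* and 37.6 CPM (32.4 to 43.3) of *Hspa1b*. On day 3 the values were 314 and 507 CPM. These cells changed in other ways: the summed macrophage markers were 317 CPM on day 1 and 3322 CPM on day 3, all 10 detected on both days, the summed FAP markers 28.6 and 1794 CPM, and the neutrophils' own markers 88565 and 29058 CPM. The estimated share of free RNA was 2.05% and 31.3%, and after subtraction *Hspa1a* was 24.5 and 105 CPM and *Hspa1b* 30.4 and 281 CPM. How much of the difference these RNAs carry was not tested further. Only 4 members had 500 UMIs in the neutrophil-like cells, and 2 of them, *Hspa1b* and *Hsp90aa1*, were called higher on day 3, against 16.5% of genes tested there.

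The balance of the copies moved with the day. *Hspa1a* gave 55.0% (54.4 to 55.5) of the pair's UMIs in monocyte/macrophage-like cells on day 1 and 48.2% (47.9 to 48.6) on day 3. In FAP-like cells the shares were 46.0% (45.3 to 46.7) and 37.5% (37.1 to 38.0), and in dendritic cell-like cells 50.1% (48.8 to 51.3) and 42.9% (42.1 to 43.6). The share was lower on day 3 in each of the 5 types measured on both days and also in the free RNA, where it was 55.5% and 44.1%. Because the free RNA moved as the cells did, and the copies share most of their sequence, the division between copies and a difference between the libraries cannot be told apart.

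Within the monocyte/macrophage-like cells, the pair was unevenly spread. To compare cells of unlike depth, each was thinned to 3000 UMIs, which left 3296 cells on day 1 and 2779 on day 3. On day 1, 73.6% of the cells had no UMI of *Hspa1a* or *Hspa1b* and 4.73% had 20 or more. The 10% of cells with most UMIs of the pair held 86.1% of them before thinning. On day 3, 32.2% of cells had none, 10.0% had 20 or more, and the top 10% of cells held 40.1%. After thinning, the 399 cells of day 1 with 5 or more UMIs held 90.8% of the pair's UMIs, and the 1082 such cells of day 3 held 90.6%. On both days a minority of cells thus held most of the UMIs, a larger minority on day 3. The thinned share of cells with a UMI of the pair was 26.4% on day 1 and 67.8% on day 3 (40.8% and 83.4% unthinned, at median depths of 11108 and 13746 UMIs). Free RNA alone, at its estimated shares of 2.07% and 1.79%, would give a UMI of the pair to 5.18% and 8.82% of the thinned cells and to 18.2% and 36.4% of the unthinned ones, so these shares do not count the cells that express the pair. The thinned shares were 32.6% and 82.7% in dendritic cell-like cells (15.5% and 6.07% from free RNA alone), 67.2% and 88.7% in FAP-like cells (14.4% and 12.8%), and 9.41% of the 287 neutrophil-like cells of day 1 that reached 3000 UMIs (5.15%).

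**Figure D2:**
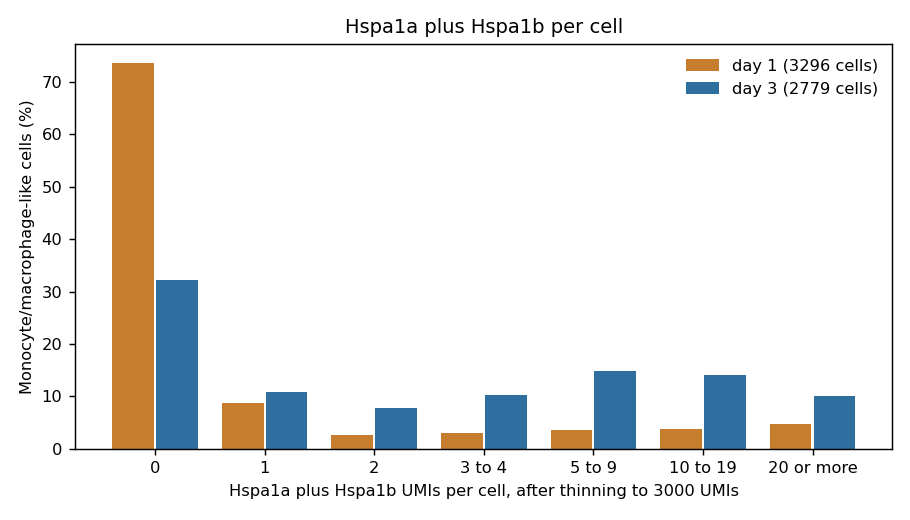
Share of monocyte/macrophage-like cells (%) by the number of *Hspa1a* plus *Hspa1b* UMIs per cell after thinning to 3000 UMIs, for 3296 cells of day 1 and 2779 cells of day 3. The bar at 0 UMIs is 73.6% on day 1 and 32.2% on day 3, and the bars from 1 UMI upward are all taller on day 3.

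The macrophage clusters of the 2 days were largely different. On day 1 the *Ccl24*-led cluster (1107 cells), the *Cd163*-led cluster (992 cells) and the *Gm9733*-led cluster (974 cells) held most of the cells. *Arg1* and *Ppbp* were leading genes of both the *Ccl24*-led and the *Cd163*-led cluster, with *Il1b* in the former and *Lyve1* and *Pf4* in the latter. Of the day 1 cells of the *Cd163*-led cluster, 21.8% had a UMI of *Cd163*. On day 3 the *Fcrls*-led (1236 cells), *Gpnmb*-led (676 cells) and *Ifi213*-led (534 cells, with the interferon-induced genes *Ifit2*, *Ifit3* and *Rsad2*) clusters held most of the cells. Clustering did not use the chaperones or *Cd163*. On day 1 the pair was at 247 CPM in the *Ccl24*-led cluster, 350 CPM in the *Ear2*-led cluster of *Ly6c2*-bearing cells, 531 CPM in the *Gm9733*-led cluster and 1702 CPM in the *Cd163*-led cluster. The 60 cells of the *Ifi213*-led cluster on day 1 were at 2289 CPM, with a median of 3087.5 UMIs against 9389 in their library. Of their 899 UMIs of the pair, 85.5% were in the 10% of cells that had most, and 35.0% of them had a UMI of it, against 54.4% in the *Cd163*-led cluster, whose cells were deeper. On day 3 the pair was at 857 CPM in the *Gpnmb*-led cluster, 1766 CPM in the *Fcrls*-led cluster, 1842 CPM in the *Ear2*-led cluster and 4008 CPM in the *Ifi213*-led cluster. The interferon-gene cluster thus had the highest level on day 3, while its place above the *Cd163*-led cluster on day 1 rests on few cells. The *Cd163*-led cluster had 13 cells on day 3. The *Ear2*-led cluster, which held 271 and 352 cells, gives a comparison within 1 cluster, and its *Hspa1a* was 176 and 845 CPM and its *Hspa1b* 174 and 997 CPM.

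**Figure D3:**
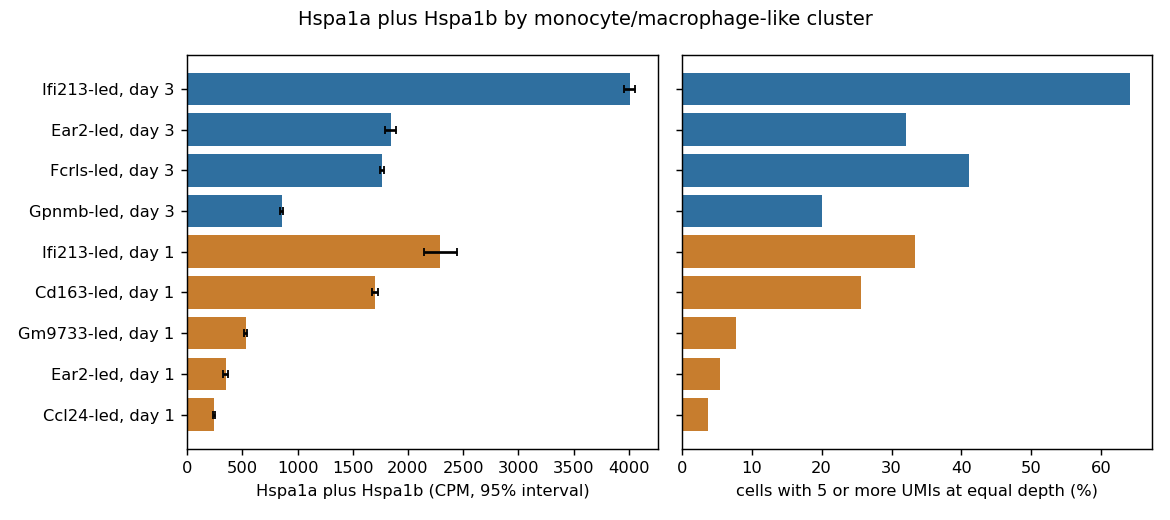
*Hspa1a* plus *Hspa1b* in each monocyte/macrophage-like cluster with at least 50 cells on a day, as CPM with exact 95% counting intervals (left) and as the share of cells with 5 or more UMIs of the pair after thinning to 3000 UMIs (right). Levels run from 247 CPM in the *Ccl24*-led cluster of day 1 to 4008 CPM in the *Ifi213*-led cluster of day 3.

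*Hspa8* encodes HSC70, the HSP70 that cells make at all times. In the monocyte/macrophage-like cells it was 1846 CPM (1833 to 1860) on day 1 and 2656 CPM on day 3, a log2 ratio of 0.52. In dendritic cell-like cells it was 2263 and 3703 CPM (0.71). In FAP-like cells it went the other way, from 3218 CPM (3193 to 3244) to 1927 CPM (1909 to 1944), a log2 ratio of -0.74. Endothelial-like cells had 2967 and 2583 CPM, neutrophil-like cells 711 and 1392 CPM, and the myoblast-like cells of day 3 had 3855 CPM (3815 to 3896), the highest of the types on that day. The constitutive and the inducible HSP70 genes therefore differed in direction between days in FAP-like and endothelial-like cells. The latter were a mixed group, with the marker sums given above.

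*Hsp90aa1*, the stress-responsive isoform of cytosolic HSP90, was 695 CPM on day 1 and 1020 CPM on day 3 in monocyte/macrophage-like cells, a log2 ratio of 0.55. It was 802 and 1602 CPM in dendritic cell-like cells, a log2 ratio of 1.00 that lay just under 2-fold. FAP-like cells had 1313 CPM (1297 to 1330) and 1233 CPM (1219 to 1247), and endothelial-like cells 1467 CPM (1390 to 1547) and 1564 CPM (1441 to 1695), the latter pair with overlapping intervals. The myoblast-like cells of day 3 had 3165 CPM (3128 to 3203), above each other type on that day. HSP90 is known to take part in the folding of myosin.

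The J-domain protein gene *Dnajb1* differed most between days in FAP-like cells, with 102 CPM (97.4 to 107) on day 1 and 410 CPM (402 to 418) on day 3, a log2 ratio of 2.01. In dendritic cell-like cells it was 66.7 and 238 CPM (1.83), in monocyte/macrophage-like cells 51.8 and 85.4 CPM (0.72), and in endothelial-like cells 143 CPM (120 to 169) and 258 CPM (209 to 314). In the neutrophil-like cells of day 1 it was 90.3 CPM (82.1 to 98.9), above its own level in the macrophages of that day, whereas both inducible HSP70 genes were far below theirs.

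*Hsph1*, the nucleotide exchange factor of the HSP110 family, was 48.8 CPM on day 1 and 116 CPM on day 3 in monocyte/macrophage-like cells, a log2 ratio of 1.25 (1.18 to 1.33). In dendritic cell-like cells it was 67.7 and 225 CPM (1.73), in FAP-like cells 158 and 233 CPM (0.55), and the myoblast-like cells of day 3 had 330 CPM. Of the 9 members, *Hspa1a*, *Hspa1b*, *Hsph1* and *Dnajb1* were called higher on day 3 in dendritic cell-like cells, 4 of the 8 with 500 UMIs, against 6.37% of the 2936 genes tested there. In monocyte/macrophage-like cells 3 of 9 were called (*Hspb1*, *Hspa1b* and *Hsph1*), against 20% of 8083 genes. When cells were selected on *Adgre1* and *Fcgr1*, 1 of 9 was, with log2 ratios of 0.39 for *Hspa1a* and 0.86 for *Hspa1b*.

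**Figure D4:**
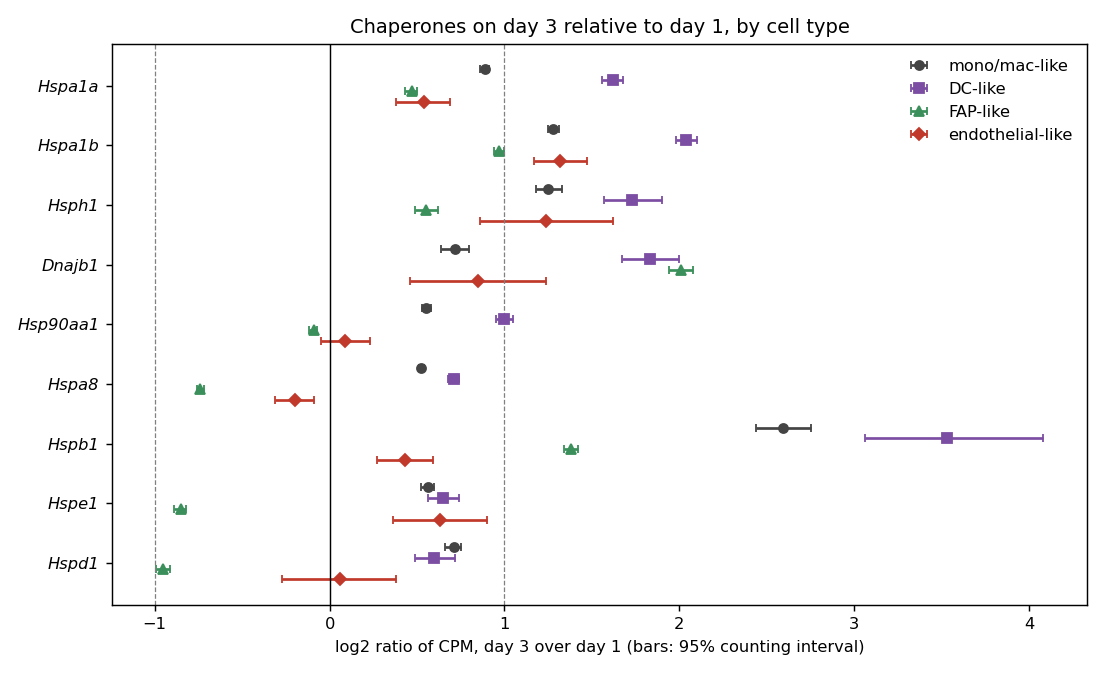
Log2 ratio of CPM, day 3 over day 1, of each chaperone in 4 cell types, with 95% counting intervals as bars and dashed lines at 2-fold. Dendritic cell-like cells have the largest ratios for *Hspa1a*, *Hspa1b* and *Hsph1*, and FAP-like cells the only ratios below -0.5, those of *Hspa8*, *Hspe1* and *Hspd1*.

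*Hspb1*, also known as HSP25 or HSP27, is abundant in muscle, vessels and connective tissue and low in blood cells. It followed that division here: endothelial-like cells had 958 CPM on day 1 and 1293 CPM on day 3, FAP-like cells 295 and 770 CPM (log2 ratio 1.38), and myoblast-like cells 593 CPM on day 3. Monocyte/macrophage-like cells had 9.92 CPM on day 1 and 59.9 CPM on day 3, a log2 ratio of 2.59 (2.44 to 2.75), and dendritic cell-like cells 5.95 and 69.5 CPM. The free RNA of the droplets held 155 and 462 CPM, above the macrophage level on both days, and after subtraction the macrophage values were 6.85 and 52.6 CPM. On day 1 only 89 of 3454 monocyte/macrophage-like cells had a UMI of *Hspb1*, and 10 of them held 264 of its 396 UMIs. On day 3, 456 of 2839 cells did, and the 10 highest held 522 of 2681. The day 1 signal was thus concentrated in few cells. FAP markers summed to 138 CPM in the 89 cells and 207 CPM in the 456, above the 26.0 and 103 CPM of all monocyte/macrophage-like cells. Satellite cell/myoblast markers, whose cells also express *Hspb1*, summed to 645 and 152 CPM in them and to 541 and 130 CPM in all monocyte/macrophage-like cells. On day 1, 4 of these 8 markers had no UMI in the monocyte/macrophage-like cells. In the day 1 cells with 5 or more UMIs of the inducible pair after thinning, 7 of the 8 had none and the sum was 520 CPM. There the sum came from 1 gene. Which genes gave the sum in the 89 *Hspb1*-bearing cells was not read, so the part of muscle-cell RNA in them was not tested. Of the *Hspb1*-bearing cells, 10 and 16 were among the cells with the highest doublet scores. Their part in the *Hspb1* level was not tested.

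The mitochondrial chaperonin is made of HSPD1 rings and HSPE1 lids. In FAP-like cells *Hspe1* was 922 CPM (908 to 935) on day 1 and 510 CPM (502 to 519) on day 3, a log2 ratio of -0.85, and *Hspd1* 821 CPM (809 to 834) and 425 CPM (417 to 433), -0.95. In monocyte/macrophage-like cells both were higher on day 3, *Hspe1* at 207 and 304 CPM (0.56) and *Hspd1* at 136 and 222 CPM (0.71). Dendritic cell-like cells also had higher values on day 3, with 276 and 432 CPM of *Hspe1* and 185 and 281 CPM of *Hspd1*. The myoblast-like cells of day 3 had 1445 CPM of *Hspe1* and 1634 CPM of *Hspd1*, the highest of all groups for each. Neutrophil-like cells of day 1 had 21.5 and 19.1 CPM, the lowest. Over the 11 groups of a type and a day, the levels of the genes that share a start region had a Pearson correlation of 0.99 on log2(CPM + 1), and those of *Hspa1a* and *Hspa1b* 0.97. The groups come from 2 libraries and share depth within each, so these values are descriptions. The genes whose level was most like the sum of *Hspa1a* and *Hspa1b* over these groups, of 10381, were *Mdp1* (0.98) and *Limd1*, *Tubgcp5*, *Rabep1* and *Inpp5f* (0.96 each). Among the other chaperones the correlation ran from 0.89 for *Hsph1* to 0.50 for *Dnajb1*.

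In FAP-like cells the chaperones thus split. The day 1 cells were nearly all in the *Saa1*-led cluster (638 of 658) and the day 3 cells in the *Sfrp2*-led cluster (836 of 846), so day and cluster are the same division. *Dnajb1* and *Hspb1* were called higher, 2 of 9 against 16% of 7688 genes. None of the 9 was called lower, against 7.99% of genes, although *Hspd1*, *Hspe1* and *Hspa8* came near to it. Other chaperones were read from lists grouped by compartment. Of the mitochondrial list, 3 of 4 genes were called lower, with a median log2 ratio of -1.21 and *Hspa9*, the mitochondrial HSP70, at -1.45. Of the TRiC list, the cytosolic ring that folds actin and tubulin, 6 of 8 were called lower, with a median of -1.11 and *Cct5* and *Cct7* at -1.50. The endoplasmic reticulum list had a median of 0.53, with *Hsp90b1* at 1.43 and *Pdia3* at 1.36, and 2 of 12 called higher. Of the 17 stress-inducible co-chaperones and HSF1 targets, 1 was called higher (*Dnajb4*, 1.45) and 4 lower. All 11 constitutive cytosolic chaperones had ratios below 0, with 1 called lower. The median over all genes tested was 0.15. FAP markers summed to 7253 CPM on day 1 and 22531 CPM on day 3 in these cells, and macrophage markers to 380 and 1257 CPM, all 10 detected. Their part in these ratios was not tested.

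In monocyte/macrophage-like cells 2 of 15 tested stress-inducible co-chaperones were called higher on day 3, where 20% of all genes tested were. The list thus did not stand above the background. The 2 were *Serpinh1*, a collagen chaperone of the endoplasmic reticulum, at a log2 ratio of 2.09 and *Chordc1* at 1.01. No gene of the constitutive, mitochondrial, endoplasmic reticulum or TRiC lists was called there in either direction, and their medians lay between -0.09 and 0.30, where all genes had 0.35. *Ubb* (-0.62), *Hyou1* (-0.52) and *Cct3* (-0.40) had the lowest ratios, and *Bag3*, the HSP70 co-chaperone of the stress response, was at 0.74. The summed FAP markers, whose cells express *Serpinh1*, were 26.0 CPM in the macrophages of day 1 and 103 CPM in those of day 3, all 8 detected, and their part in that value was not tested. In dendritic cell-like cells *Bag3* was at 1.39, the only gene of the 5 chaperone lists called there, where 6.37% of all genes were called higher. *Cct5* (-0.58), *Cct3* (-0.55) and *Hyou1* (-0.53) were lowest. In endothelial-like cells, with the mixed markers given above, 1 of 5 members with 500 UMIs was called higher (*Hspa1b*, 1.32), against 4.02% of 373 genes. In neutrophil-like cells, with the marker values given above, 4 of 5 tested endoplasmic reticulum chaperones were called higher on day 3, with *Hsp90b1* at 2.78 and *Pdia3* at 2.45. Of the constitutive cytosolic ones 1 of 4 was (*Hsp90ab1*, 2.10), and 16.5% of all genes tested there were. Over all cells only *Serpinh1* (1.08) of these lists was called, where 20.9% of all genes tested were called higher. *Bag3* (0.92) and *Hsp90b1* (0.87) followed, and *Ubb* (-0.67), *Cct5* (-0.50) and *Hyou1* (-0.41) were lowest.

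*Cd163* encodes the scavenger receptor for hemoglobin and haptoglobin and marks resident and repair macrophages. A cell was taken as *Cd163*-bearing when it had at least 1 UMI of the gene, which held for 377 of 3454 monocyte/macrophage-like cells on day 1 and for 176 of 2839 on day 3. On day 1 the *Cd163*-bearing cells had 924 CPM (899 to 950) of *Hspa1a* and the other cells 381 CPM (374 to 387), a log2 ratio of 1.28, and 831 CPM (807 to 856) and 300 CPM (295 to 306) of *Hspa1b*, a log2 ratio of 1.47. *Hsph1* was 105 and 40.2 CPM (1.38). These were 3 of the 8 members with 500 UMIs, against 1.58% of 5679 genes. Nothing is read from that count, because this contrast led to the choice of the list. The next lower ratios, those under 2-fold, were *Hspe1* (306 and 192 CPM, 0.67), *Dnajb1* (72.0 and 48.8 CPM, 0.56) and *Hspd1* (186 and 129 CPM, 0.53), then *Hsp90aa1* (907 and 662 CPM, 0.45) and *Hspa8* (2171 and 1797 CPM, 0.27). All 8 were thus higher in the *Cd163*-bearing cells, where the median over all genes tested was 0.09. The largest ratios were those of *Hspa1b*, *Hsph1* and *Hspa1a*, and the HSP70 pair is what led to the list. When cells were selected on *Adgre1* and *Fcgr1*, 200 against 1056 cells gave 0.81 for *Hspa1a* and 0.77 for *Hspa1b*, under 2-fold, and 1.18 for *Hsph1*.

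On day 3 the *Cd163*-bearing cells and the others were close. *Hspa1a* was 923 CPM (892 to 956) and 831 CPM (822 to 840), a log2 ratio of 0.15, *Hspa1b* 952 and 896 CPM (0.09), *Hsph1* 141 and 114 CPM (0.30), and *Hspa8* 2586 and 2662 CPM (-0.04). The largest ratio was 0.52, of *Hspb1* at 83.1 and 58.0 CPM. None of 9 members was called, against 0.271% of 7017 genes. *Hspa1a* was thus 924 and 923 CPM in the *Cd163*-bearing cells of day 1 and day 3 and 381 and 831 CPM in the others. *Hspa1b* in the *Cd163*-bearing cells was 831 and 952 CPM, *Hsph1* 105 and 141 CPM and *Hspa8* 2171 and 2586 CPM, each higher on day 3. These cells came from different clusters on the 2 days, 57.3% from the *Cd163*-led cluster on day 1 and 63.1% from the *Fcrls*-led cluster on day 3. Their *Cd163* level was 480 CPM on day 1 and 138 CPM on day 3, and 145 of 377 and 108 of 176 of them had a single UMI of it. On day 3 they had a median of 17799.5 UMIs and the other cells 13333. The part of these differences in the ratios was not tested. Whether the ratio differs between days beyond the spread of animals was not tested, since each day was 1 library.

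**Figure D5:**
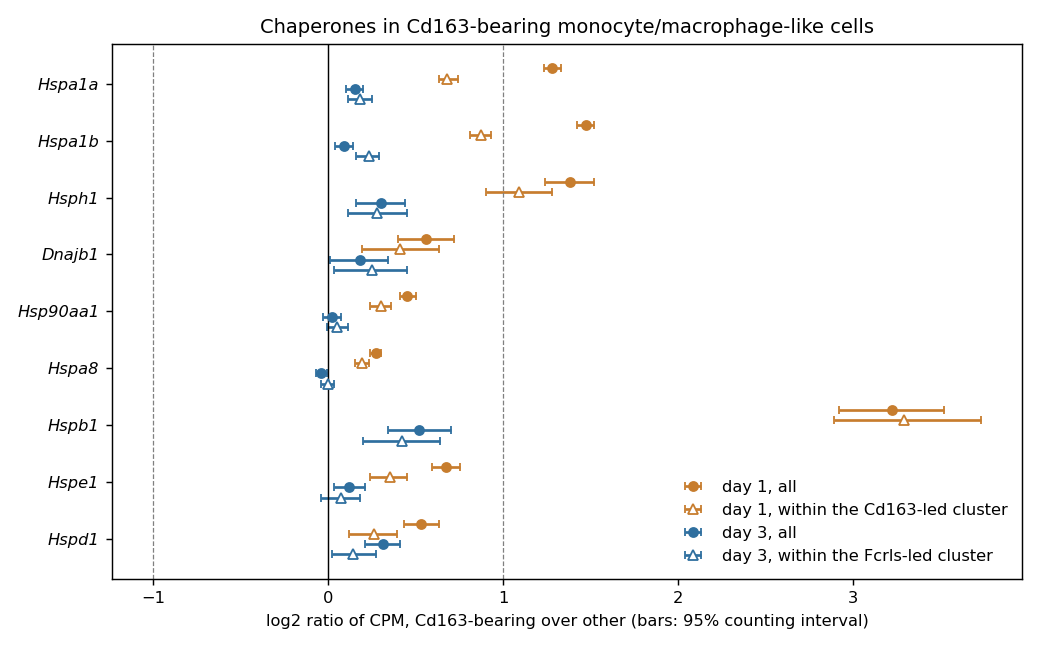
Log2 ratio of CPM, *Cd163*-bearing over other monocyte/macrophage-like cells, of each chaperone on day 1 and day 3, with 95% counting intervals as bars, over all such cells (circles) and within the *Cd163*-led cluster of day 1 or the *Fcrls*-led cluster of day 3 (triangles). Over all cells on day 1 *Hspa1a*, *Hspa1b* and *Hsph1* lie between 1.28 and 1.47 and *Hspb1* at 3.22, and on day 3 the members lie between -0.04 and 0.52.

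The day 1 groups differed in more than *Cd163*. The *Cd163*-bearing cells had a median of 13018 UMIs and the others 10906, their macrophage markers summed to 8359 and 4019 CPM and their neutrophil markers to 1119 and 1937 CPM, all detected in both groups, and 57.3% of them and 25.2% of the others were in the *Cd163*-led cluster. FAP markers summed to 33.3 and 24.9 CPM, and 7.96% and 6.21% were among the cells with the highest doublet scores. Their part in the ratios was not tested. Within the *Cd163*-led cluster, 216 *Cd163*-bearing cells and 776 others had 1304 and 811 CPM of *Hspa1a* (log2 ratio 0.68), 1163 and 638 CPM of *Hspa1b* (0.87) and 134 and 62.8 CPM of *Hsph1* (1.09). Within the *Ccl24*-led cluster, 112 and 995 cells had 208 and 131 CPM of *Hspa1a* (0.66) and 187 and 94.7 CPM of *Hspa1b* (0.98). In both clusters of day 1 the ratios of the HSP70 pair were smaller than over all monocyte/macrophage-like cells. Within the *Fcrls*-led cluster of day 3, 111 and 1125 cells gave 0.18 for *Hspa1a* and 0.23 for *Hspa1b*, above the 0.15 and 0.09 over all such cells of that day.

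By the number of *Cd163* UMIs, the pair on day 1 was at 681 CPM (672 to 690) in cells with none, 959 CPM (917 to 1003) in the 145 cells with 1, 694 CPM (628 to 764) in the 41 cells with 2, and 2576 CPM (2516 to 2637) in the 191 cells with 3 or more. The difference was thus largest in the cells with 3 or more UMIs, and the cells with 2 did not stand above those with 1. On day 3 the values were 1727, 1799, 1839 and 2054 CPM, so in the cells with 3 or more UMIs the pair was higher on day 1. *Hspb1* on day 1 was 43.9 CPM (38.4 to 49.9) in *Cd163*-bearing cells and 4.71 CPM (4.02 to 5.49) in others, a log2 ratio of 3.22, on 396 UMIs in all. Of the 10 cells that held 66.7% of those UMIs, 8 were *Cd163*-bearing, so this ratio rests on few cells.

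Of the other chaperones, the day 1 *Cd163*-bearing cells had no gene called in any list, where 1.58% of all genes tested were called higher and 1.53% lower. *Bag3* (0.87), *Sdf2l1* (0.84) and *Pdia4* (0.80), of which the last 2 fold secreted proteins, had the highest ratios, and *Hsf2* (-0.51), *Hsf1* (-0.22) and *Dnajb6* (-0.10) the lowest. All 12 endoplasmic reticulum chaperones were above 0, with a median of 0.43, as were all 8 TRiC genes, with a median of 0.15, where the median of all genes was 0.09. On day 3 the medians of the 5 chaperone lists lay between 0.05 and 0.16, *Serpinh1* (0.76), *Stub1* (0.33) and *Hsf1* (0.33) were highest, and *Ubb* (-0.23) was lowest.

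To see which chaperones went with the inducible pair in single cells, monocyte/macrophage-like cells with 5 or more UMIs of *Hspa1a* plus *Hspa1b* after thinning were set against those with none. The pair itself chose these cells and is not compared. On day 1 there were 399 such cells, 61.9% of them in the *Cd163*-led cluster, and 2426 without the pair, 22.5% in that cluster. On day 1 *Hspa8* was 4237 and 1348 CPM, a log2 ratio of 1.65 (1.60 to 1.70), and *Hsp90aa1* 1512 and 546 CPM, a ratio of 1.47 (1.39 to 1.55). *Hspe1* (316 and 166 CPM) and *Hspd1* (206 and 108 CPM) both had a ratio of 0.93. These 4 had 500 UMIs, and 2 were called, against 1.26% of 2136 genes. With fewer UMIs, *Hsph1* was 175 and 27.5 CPM, *Dnajb1* 135 and 42.6 CPM and *Hspb1* 64.3 and 2.75 CPM. Each of the 7 other chaperones was thus higher in the cells with the pair.

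On day 3, 1082 cells had 5 or more UMIs of the pair, 30.3% of them in the *Ifi213*-led cluster, and 895 had none, 10.3% in that cluster. *Hsph1* was 205 and 61.1 CPM (1.74), *Dnajb1* 136 and 52.1 CPM (1.37) and *Hsp90aa1* 1647 and 614 CPM (1.42). *Hspa8* was 3606 and 2155 CPM (0.74), *Hspd1* 254 and 153 CPM (0.73) and *Hspe1* 361 and 263 CPM (0.46). Of these 6 members, 3 were called, against 0.971% of 1750 genes. The J-domain co-chaperone *Dnaja1* was the only gene of the other chaperone lists called on either day, at 1.15 on day 1 and 1.09 on day 3. The groups had median depths of 11134 and 11240 UMIs on day 1 and 12066.5 and 15056 UMIs on day 3 before thinning, median mitochondrial shares of 2.55% and 2.53% on day 1 and 4.24% and 4.15% on day 3, summed macrophage markers of 7269 and 3804 CPM on day 1 and 9196 and 8496 CPM on day 3, and summed neutrophil markers of 950 and 1935 CPM and 393 and 937 CPM. Their part in these ratios was not tested.

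Immediate early genes, which answer to stress and to enzymatic digestion of tissue within minutes, were read as a list. On day 1, 15 of 17 were above 0 in the cells with the inducible pair, with a median of 0.56 and 3 called higher (*Jun*, 1.57, *Egr1*, 1.76, and *Atf3*, 2.90, named after their values were seen). On day 3, 15 of 17 were above 0, with a median of 0.39 and none called higher. Between days in monocyte/macrophage-like cells, 3 of 17 were called higher on day 3 and 5 lower, where 20% and 4.95% of all genes tested were, and the median was -0.34. In FAP-like cells 6 were higher and 3 lower, where 16% and 7.99% of all genes were, and the median was 0.61. In *Cd163*-bearing cells the median was 0.04 on day 1 and -0.27 on day 3. The part of dissociation in the level of the chaperones was not tested.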

How the data were processed

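Single cell RNA sequencing was performed by the authors on mononuclear cells of injured quadriceps, with 1 library from pooled mice at each of 2 time points. The deposited values are raw UMI counts per gene and barcode, which the authors made with Cell Ranger 5.0.0 on mm10 according to their processing notes. They were not normalized, and cells had not been called. How reads that fit more than 1 gene were counted is not given in the sources used here. The members and the gene lists were chosen with earlier results of these data known.

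The 7367 and 6640 barcodes with most UMIs were taken, and those with at least 1000 UMIs, 200 genes and at most 7.5% mitochondrial UMIs were kept. SCTransform (package sctransform 0.4.2, run from Seurat 5.3.0 under R 4.3.3) gave the residuals, which were clustered on 10 PCs at a resolution of 0.8, without the chaperones and markers (2881 of 3000 variable features). Clusters were named from marker lists, and names carry the ending -like. Doublets were kept, because Scrublet's own threshold marked 2 cells of day 1 and 0 of day 3. An alternative removed the 363 and 171 cells with the highest scores, which are the cells meant by the highest doublet scores.

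CPM was computed from UMIs summed over cells, with exact Poisson intervals of 95%, and shares carry Clopper-Pearson intervals (Python 3.11.15, scipy 1.17.1). Log2 ratios had 0.5 added to each count and carry exact binomial intervals. All intervals cover counting error only. The share of cells that free RNA alone would give a UMI was computed from each cell's UMIs with a Poisson model. Genes with at least 500 UMIs in both groups together were compared, and a 2-fold difference was called. With 1 library per day no p-value was computed. The ratio code was tested on simulated data. All members were described, and the named genes of the other chaperone lists are the top 3 and bottom 3 by ratio in each comparison, with the 5 genes most like *Hspa1a* plus *Hspa1b* added, except that only the lowest is given for the *Cd163* comparison on day 3, where 1 item is not reported here. Other genes were named after their values were seen. Promoter windows came from RefSeq on GRCm38.p6, the patched form of mm10.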

Additional observations from a re-analysis of the deposited data

How the results depend on the processing

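Over all cells, 4 to 6 of the 9 chaperones were called higher on day 3 under every alternative run. Among monocyte/macrophage-like cells, where 3 of 9 were called, 1 was when each cell took the name of its highest marker score, 1 when cells were selected on *Adgre1* and *Fcgr1*, and 6 at a limit of 1.5-fold. Under the other alternatives it was 3 or 4. The ratio of *Hspa1a* in these cells ranged from 0.39 to 1.14 and that of *Hspa1b* from 0.80 to 1.55. Of the *Cd163*-bearing cells of day 1, where 3 were called, 1 was when cells were selected on *Adgre1* and *Fcgr1*, and 2 to 4 under the others, with *Hspa1a* between 0.81 and 1.95 and *Hspa1b* at 0.77 or above. On day 3 none was called except 1, lower, when the 13 cells of the cluster with the highest *Cd163* level were set against the rest (*Hspb1*, -4.64). The cell type with the highest level was the same for 14 to 17 of the 18 pairs of a gene and a day under most alternatives. It was the same for 11 when cells were barcodes holding 10% or more of the UMI count at the 99th percentile, for 11 when each cell took the name of its highest marker score, and for 6 when cells with fewer than 200 genes per 1000 UMIs were left out. The causes were not tested. No ratio called in the main run changed sign. That of *Hspb1* in the *Cd163* comparison of day 3, not called in the main run, went from 0.52 to -4.64. Thinning every cell to 3000 UMIs lowered the share of all genes called higher on day 3 from 20.9% to 11.5% over all cells, and raised *Hspa1a* to 1.08. Calling *Cd163*-bearing cells after thinning was added after seeing the data, and gave 2 members on day 1 and 0 on day 3. No paired analysis was possible because each day was 1 library of pooled mice.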

Other observations

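The cells left out for a mitochondrial share over 7.5% carried the chaperones too. On day 3, 1804 such cells that passed the other limits had 715 CPM of *Hspa1a* and 1033 CPM of *Hspa1b*, where the kept cells had 773 and 983 CPM. On day 1, 277 such cells had 373 CPM (333 to 417) of *Hspa1a*, where the kept cells had 436 CPM. The mitochondrial chaperonin gene *Hspe1* was lower in the cells left out on both days, at 161 CPM against 394 CPM on day 1 and 405 CPM against 493 CPM on day 3. These cells were not divided by type.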
